A study of Homo sapiens with 6 samples.

Results

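The genes that encode the receptors for glutamate, GABA and glycine were followed in 6 clonal lines of HEK293 cells. They were chosen by symbol: every gene named as a subunit of an AMPA, kainate, NMDA or delta-type glutamate receptor, a metabotropic glutamate receptor, a GABA-A, GABA-A rho or GABA-B receptor, or a glycine receptor. This gave 52 of the 58395 genes in the count tables. The rule itself used no measured value, but it was set with earlier results of these data known. Glutamate is the main excitatory transmitter of the brain, and GABA and glycine are the main inhibitory transmitters. The ionotropic receptors are ion channels put together from several subunits, so that a cell can form a channel only from subunits that fit together. The metabotropic glutamate receptors and the GABA-B receptor act through G proteins instead, the former as dimers of like proteins and the latter as a dimer of its 2 different subunits. HEK293 is an established line of human embryonic kidney origin that is used as a host for cloned receptors of this kind, so the receptor genes it transcribes itself are of interest to those who use it.

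GST lines 2, 8 and 9 overexpressed GST-3F, glutathione S-transferase with a tag (3F in the labels), and served as the controls. NOCT lines 4, 11 and 12 overexpressed NOCT ∆(2-15)-3F, nocturnin without residues 2 to 15 and with the same tag. Nocturnin is an enzyme of the CCR4 family that acts on NADP and NADPH, and the study compared RNA levels between lines that carry this form and lines that carry the control protein. All 6 were HEK293 lines grown in the same way, and each was 1 clone, so a difference between clones that has nothing to do with the construct counts as spread between replicates. The promoter that drove the constructs is not given in the sources used here.

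The libraries held 19729745 to 24422406 gene counts, with reads in 26140 to 27682 genes each. The GST construct had 46 to 88 reads in the GST lines and 0 or 1 in the NOCT lines, and the NOCT construct had 46 to 82 reads in the NOCT lines and 3 to 7 in the GST lines, so each library held the construct its label names. Of the lineage markers of HEK293, EYA1, LHX1 and PAX2 were all transcribed, and PAX8 was at 0 to 2 reads. These markers were not level between the groups. Of the 4 tested of 5 in the list, 3 had an unadjusted p under 0.05 in edgeR, against 13.9% of all genes tested. PAX2 was lower in the NOCT lines (log2 fold change -2.13), and LHX1 (0.94) and EYA1 (0.99) were higher. The list summed to 30.2 to 33.3 TPM in the GST lines and 38.1 to 39.2 TPM in the NOCT lines. TPM is the abundance scaled for gene length and for the total of the library. The marker list for neurons (SNAP25, SYT1, RBFOX3, SYN1, STMN2 and SLC17A7) summed to 5.61 to 9.43 TPM in the GST lines and 1.18 to 5.16 TPM in the NOCT lines. Of these 6 markers 4 could be tested, and 0 of them had an unadjusted p under 0.05 in edgeR (13.9% of all genes tested). None was at 0 in every line, but STMN2 had at most 1 read in a line, and SYT1 had 290, 110 and 154 reads in GST lines 2, 8 and 9 and 150, 18 and 0 in NOCT lines 4, 11 and 12. The 4 general epithelial markers differed the other way, with 113 to 127 TPM in the GST lines and 201 to 361 in the NOCT lines. Of these 4, 3 (EPCAM, KRT8 and KRT18) had an unadjusted p under 0.05 in edgeR, against 13.9% of all genes tested. The part of these shifts in the receptor results was not tested, and in bulk RNA fewer cells of a kind and less RNA per cell cannot be told apart.

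A receptor gene was counted as detected in a line where it had at least 1 read, and 46 of the 52 were detected in at least 1 line. The members together had 3124 to 5077 reads in a line. Only 27 had a read in all 6 lines. The other 6 were at 0 in all lines, among them GABRA6 (an alpha subunit of GABA-A receptors), GABRR3 (a rho subunit), GLRA4 (a glycine receptor gene) and GRM6 (the metabotropic receptor of retinal bipolar cells). A count of 0 allows up to 3 reads in a library, which is 0.118 to 0.158 CPM (counts scaled to library size and TMM factor) by library, for counting error only. A further 14 members had 1 to 9 reads over all 6 lines, 10 had 10 or more reads but too few for the test, and 22 could be tested. The tested share was thus 42.3%, against 67.4% of the 19892 protein-coding genes.

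By class, every kainate, delta and GABA-B gene had at least 10 reads over the 6 lines, and no other class did. Of the 16 GABA-A genes, 5 were tested, 4 had 10 or more reads without being tested, 4 had 1 to 9 reads (GABRA4, GABRB1, GABRB2 and GABRG1) and 3 were at 0. Among the 4 AMPA genes only GRIA3 was tested. GRIA2, whose edited subunit keeps AMPA channels impermeable to calcium, had 1 read in each of GST line 2 and NOCT lines 11 and 12, and GRIA1 had 2 reads in NOCT line 12 alone. The NMDA class held 4 tested genes, all of the GRIN2 type that binds glutamate. GRIN1, the subunit that every NMDA receptor needs, had 1, 3 and 6 reads in GST lines 2, 8 and 9 and 4, 1 and 1 in NOCT lines 4, 11 and 12. GRIN3A and the rho gene GABRR1 were among those with 1 to 9 reads. In the glycine class GLRB, the beta subunit that binds gephyrin, was tested, while the alpha subunits GLRA1, GLRA2 and GLRA3, which a glycine channel requires, had 1, 2 and 4 reads in all. Of the 8 metabotropic glutamate receptor genes only GRM2 and GRM8, both of the kind that lowers cyclic AMP, were tested; GRM5 and GRM7 were among those with 1 to 9 reads.

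**Figure D1:**
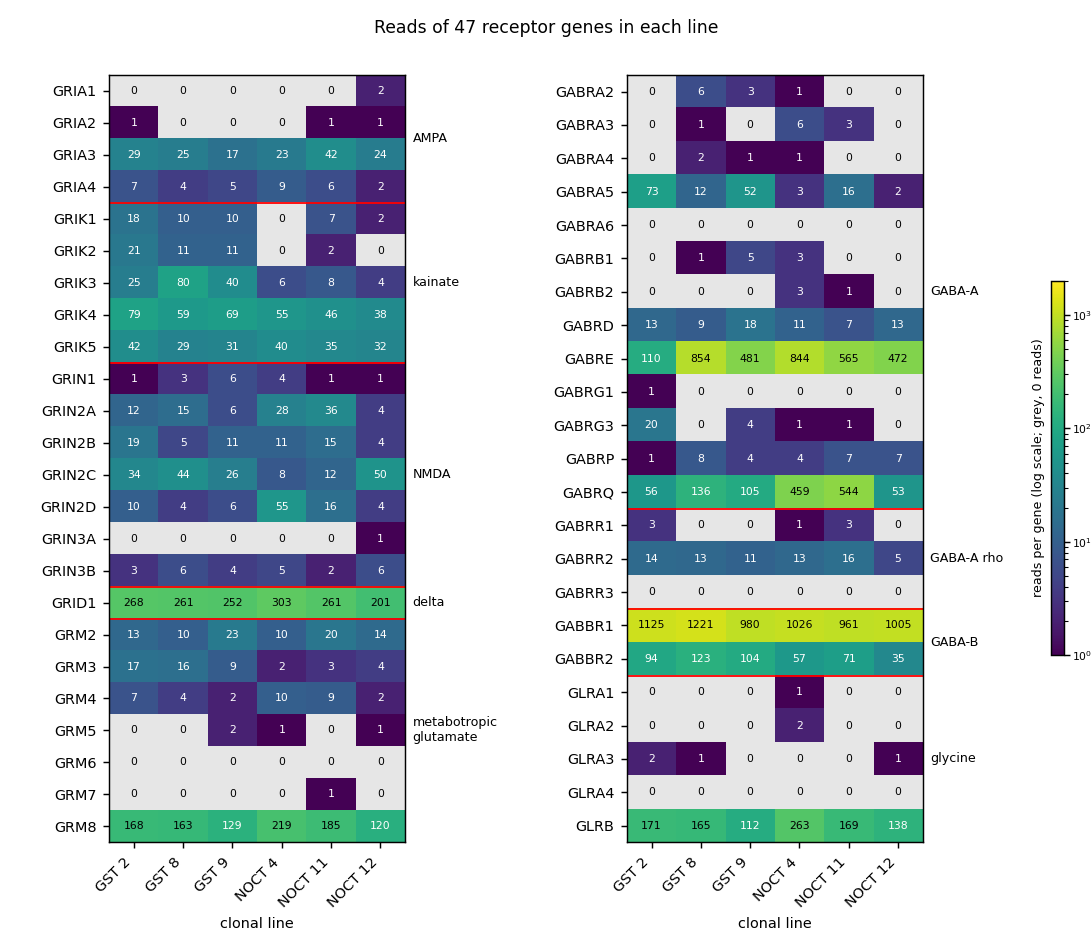
Heat map of the reads of 47 of the 52 receptor genes (rows, grouped by receptor class, with red lines between classes) in each clonal line (columns); colour gives the reads on a log scale and grey marks 0 reads. A few rows, such as GABBR1 with 961 to 1221 reads and GRID1 with 201 to 303, stand far above the rest. The row of GRIK3 is darker in the NOCT lines, and that of GRIK2 is grey in NOCT lines 4 and 12 and darker in NOCT line 11.

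Levels were compared between genes in TPM. The mitochondrial ribosomal RNA MT-RNR2 alone took 43.0% to 47.7% of the TPM of a line, which scales down the values of all other genes. The 52 members summed to 63.2, 75.4 and 61.4 TPM in GST lines 2, 8 and 9 and to 75.3, 70.4 and 52.8 TPM in NOCT lines 4, 11 and 12. The groups overlapped, with NOCT line 12 the lowest. Mean TPM over the 6 lines was 1 or more for 9 members and under 0.1 for 27, and the top 5 held 73.3% of the sum of the means (66.4 TPM).

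The highest was GABBR1, the GABA-binding subunit of the GABA-B receptor, at 16.8 TPM, which placed it at the 70.0th percentile of protein-coding genes. GABRE, the epsilon subunit, had a mean of 7.65 TPM, but its lines ran from 1.62 in GST line 2 to 12.0 in GST line 8, so its place among its neighbours in the order was not settled by the spread. GLRB (6.55 TPM), GRID1 (5.84 TPM), GABRQ (the theta subunit, 4.76 TPM) and GRM8 (3.40 TPM) came lower, with ranges over lines that overlapped for each neighbouring pair. GABBR2, the partner of GABBR1 that carries it to the cell surface and couples to the G protein, had 1.43 TPM, and GRIK4, a kainate subunit that needs a partner, 1.04 TPM. The GABA-B pair was therefore unequal at the RNA level in every line: GABBR1 ran from 14.7 to 19.5 TPM and GABBR2 from 0.651 to 2.18 TPM. The same 10 genes led when reads per kilobase of annotated exon were used in place of the TPM.

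**Figure D2:**
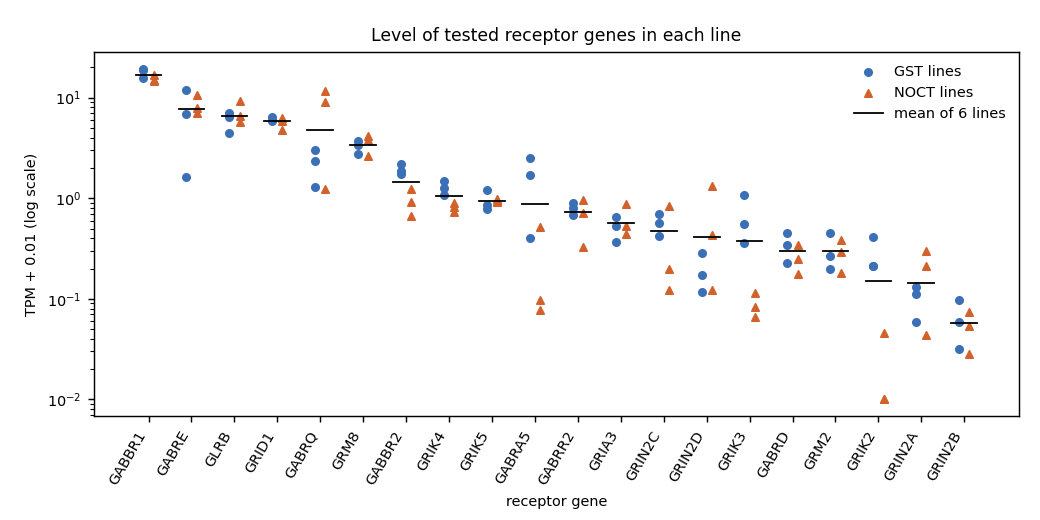
TPM + 0.01 (log axis) of 20 of the 22 tested receptor genes, ordered by their mean over 6 lines (horizontal bars), with 1 point per line (blue circles, GST lines; orange triangles, NOCT lines). GABBR1 leads at a mean of 16.8 TPM; the lines of GRIK3, GRIK2 and GABBR2 separate by group, while GABRE and GABRQ spread widely within a group.

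Receptor genes clustered on a chromosome did not share a level. On the X chromosome (GRCh38, 151953124 to 152657534) GABRE and GABRQ lie on either side of GABRA3, and the locus had 4689 reads over the 6 lines, of which GABRA3, an alpha subunit, had 10. The cluster on chromosome 4 (46035769 to 47426444) with GABRG1, GABRA2, GABRA4 and GABRB1 had 24 reads in all. Exons on the same strand overlap between GABBR1 and UBD (722 bases), GABRE and MIR224 and MIR452 (166 bases) and GRID1 and RF02271 (78 bases), so reads there were open to the counting rule; the other members had no such overlap.

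The promoter letters of the members were read next, since genes transcribed in most cell types often start in CpG-rich sequence while tissue-restricted genes often do not. RefSeq promoter windows (GRCh38.p14; 250 bases before to 50 after the start) were found for 38 of the 52, taking the listed start nearest to the GENCODE gene start. For 13 of the 38 (3 of 15 tested and 10 of 23 not tested) that start was still more than 1000 bases away, so the window may not hold the promoter in use. The 5 below show the 250 bases before the start, in the order from a well transcribed gene to one at 0, with every CpG in capitals. GABRE (chrX:151974677-151974926, minus strand) and GABRQ (chrX:152637645-152637894, plus strand) are the transcribed pair of the X cluster, GRIK3 (chr1:37034516-37034765, minus strand) had the smallest p among the members, GLRA1 (chr5:151924852-151925101, minus strand) had 1 read and GABRR3 (chr3:98035316-98035565, minus strand) had 0.
GABRE: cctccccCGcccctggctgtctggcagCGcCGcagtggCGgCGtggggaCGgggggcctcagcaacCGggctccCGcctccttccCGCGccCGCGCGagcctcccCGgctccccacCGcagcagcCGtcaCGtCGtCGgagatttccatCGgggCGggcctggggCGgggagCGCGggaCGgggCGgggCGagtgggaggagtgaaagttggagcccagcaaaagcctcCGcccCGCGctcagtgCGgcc
GABRQ: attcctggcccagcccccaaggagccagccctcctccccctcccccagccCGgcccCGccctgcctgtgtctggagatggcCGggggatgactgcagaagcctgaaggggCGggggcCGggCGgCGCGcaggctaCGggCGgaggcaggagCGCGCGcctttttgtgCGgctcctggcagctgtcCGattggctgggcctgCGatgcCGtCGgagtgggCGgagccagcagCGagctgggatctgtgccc
GRIK3: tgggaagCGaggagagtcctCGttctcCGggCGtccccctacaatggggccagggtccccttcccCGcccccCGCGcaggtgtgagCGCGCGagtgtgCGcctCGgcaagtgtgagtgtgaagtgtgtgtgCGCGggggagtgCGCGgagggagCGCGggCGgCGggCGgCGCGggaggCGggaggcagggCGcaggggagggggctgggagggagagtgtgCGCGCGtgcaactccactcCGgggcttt
GLRA1: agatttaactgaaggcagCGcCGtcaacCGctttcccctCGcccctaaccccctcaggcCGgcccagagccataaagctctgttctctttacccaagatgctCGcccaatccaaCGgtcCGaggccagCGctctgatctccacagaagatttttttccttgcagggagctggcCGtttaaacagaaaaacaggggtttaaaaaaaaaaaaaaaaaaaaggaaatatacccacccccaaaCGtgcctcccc
GABRR3: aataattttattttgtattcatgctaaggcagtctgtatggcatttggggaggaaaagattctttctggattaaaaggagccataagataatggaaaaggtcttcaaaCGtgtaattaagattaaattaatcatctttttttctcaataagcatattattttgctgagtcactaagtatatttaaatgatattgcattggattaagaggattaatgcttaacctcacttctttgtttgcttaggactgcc
These stretches hold 31 (GABRE), 20 (GABRQ), 29 (GRIK3), 11 (GLRA1) and 1 (GABRR3) CpG.

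Over the full windows, the 15 tested members with a match had a median of 33 CpG (range 5 to 50) and the 23 not tested a median of 11 (range 2 to 34), beside a median of 14 in all 35116 promoters of the table. The 7 matched members with a mean of 1 TPM or more had 27 to 50. The GC box GGGCGG, sought on both strands and itself holding a CpG, was in 13 of the 15 tested (86.7%), in 7 of the 23 not tested (30.4%) and in 45% of all promoters. With only the windows within 1000 bases of the gene start, a restriction chosen after seeing the data, the medians were 34 CpG for 12 tested members and 14 for 13 not tested, and the GC box was in 91.7% and 30.8% of them. TATAAA, also sought on both strands, was in 1 of the 38 (2.63%) and in 11.5% of all promoters. The windows also differ in overall base composition, with a median GC content of 70.0% among tested members and 56.0% among the others. There were exceptions both ways: GABRR2, a rho subunit with 0.722 TPM, had 5 CpG, and GABRA4, an alpha subunit with 4 reads in all, had 32. These are descriptions of letters in a window and do not show binding or methylation.

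**Figure D3:**
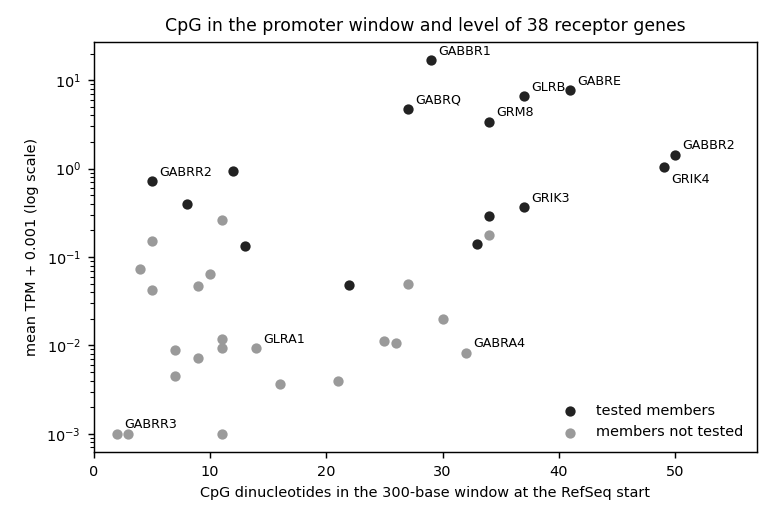
CpG dinucleotides in the 300-base RefSeq promoter window (x axis) against the mean TPM + 0.001 over 6 lines (y axis, log scale) for the 38 matched receptor genes; black points were tested and grey points were not. The 7 points with a mean of 1 TPM or more sit at 27 to 50 CpG. Of the 6 members at 0, 3 had a window, with 2 to 11 CpG, and 1 of these windows lies more than 1000 bases from the gene start.

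The comparison of the groups came next. In edgeR, 0 of the 22 tested receptor genes reached an adjusted p below 0.05 (quasi-likelihood test), as 0.0579% of all genes did (10 of 17261). At an unadjusted p under 0.05 there were 8 (36.4%), against 13.9% of all genes. Of these, 7 were lower in the NOCT lines (background 6.52%) and 1 was higher (background 7.38%). GRIK2, GRIK3 and GABRA5, among the lower ones, had enough reads for the test only with the GST lines counted. The count of lower members is thus partly set by the filter and does not support a shift of the receptor genes as a set. DESeq2 called 3, GRIK3, GABBR2 and GABRA5 (background 2.94%), and the authors' deposited table gives the same 3 genes an adjusted p under 0.05 (background 2.87%). The choice of lines mattered: without NOCT line 12 edgeR called 5 members, GABRQ, GRIK2, GRIK3, GRIN2C and GRM3, but then 5.42% of all genes (970 of 17882) passed as well, and without each other line 0 members and 0 to 13 genes passed. The count at an unadjusted p under 0.05 was 4 of 23 tested without GST line 2 (background then 13.2%) and 13 of 24 without NOCT line 12 (background then 23.2%). With no filter on low counts edgeR called 7 members (background 2.57%), among them GABBR2, GABRA5, GABRQ, GRIK2, GRIK3 and GRM3.

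Of the 22, 15 had a log2 fold change below 0 and 7 above, with a median of -0.26 beside 0.005 over all genes tested, of which 49.3% were lower. Scaling by spike-in totals moves the median of all genes to 0.15, and GRIK5 is then the member that switches side. No overlap in CPM between the lines of the groups was seen for 6 of the 22 (27.3%; background 20%), and in all 6 the NOCT lines lay below (background 9.54%). GABBR2, GRID1, GRIK2, GRIK3 and GRIK4 were among them. None of the 22 had every NOCT line above (background 10.5%). GRIK2, GRIK3 and GABRA5 passed the filter only with the GST lines counted. The counts below 0 and without overlap are therefore partly set by the filter as well. NOCT line 12 was the lowest of the 6 lines for 12 of the 22, against 17.9% of all genes, and GST line 2 was the highest for 10, against 17.5%. These counts by line include the members kept only with the GST lines, so the filter partly sets them too.

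**Figure D4:**
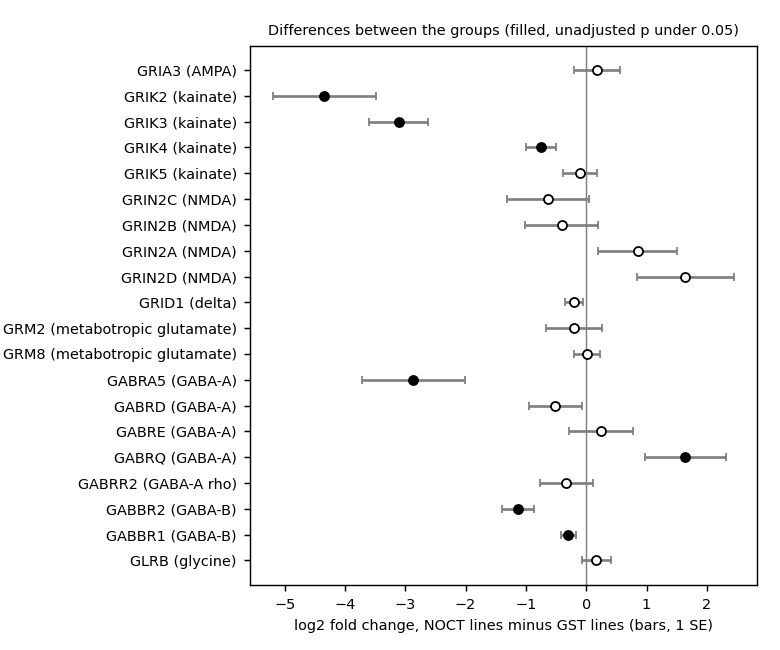
Log2 fold change (NOCT lines minus GST lines, edgeR) with 1 standard error for 20 of the 22 tested receptor genes, grouped by class; filled points have an unadjusted p under 0.05. The points range from -4.35 (GRIK2) to 1.64 (GABRQ and GRIN2D), and 3 of the 4 tested kainate genes lie left of 0 by more than their error with filled points.

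Of the kainate genes, 3 were lower in the NOCT lines at an unadjusted p under 0.05; GRIK2 and GRIK3 had enough reads for the test only through the GST lines, so this count is partly set by the filter and does not support a difference of the class. Kainate receptors are glutamate-gated channels in which GRIK1, GRIK2 and GRIK3 encode subunits that can form a channel without others, and GRIK4 and GRIK5 encode subunits that need such a partner. The class summed to 4.03, 3.43 and 3.16 TPM in GST lines 2, 8 and 9 and to 1.93, 2.10 and 1.75 TPM in NOCT lines 4, 11 and 12, so every NOCT line lay below every GST line. The same held for the GABA-B sums, at 17.7 to 21.6 TPM in GST lines and 15.6 to 17.5 TPM in NOCT lines. Class sums were not tested.

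GRIK3 (ENSG00000163873; chromosome 1, 36795527 to 37034129, minus strand, GRCh38) had 25, 80 and 40 reads in GST lines 2, 8 and 9 and 6, 8 and 4 reads in NOCT lines 4, 11 and 12. The GST lines differed 2.82-fold among themselves in CPM and all lay above the NOCT lines. Its mean was 2.33 ± 1.24 CPM in GST lines and 0.265 ± 0.083 CPM in NOCT lines (SD, n = 3 each). edgeR gave GRIK3 a log2 fold change of -3.11 ± 0.49 (SE) with an adjusted p of 0.0751, and 0.0000838 by DESeq2; over all alternatives the adjusted p ran from 1.06e-05 (no filter) to 0.357 (without GST line 9). The exact two-sided permutation test gave 0.1, the smallest p that 3 lines against 3 allow. In the authors' deposited table GRIK3 has a shrunken log2 fold change of -1.22 and an adjusted p of 3.56e-05. GRIK3 passed the filter here only through the GST lines, the group where it was high. Its p-values in the filtered fits are therefore no support for a difference.

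GRIK2 (ENSG00000164418; chromosome 6, 101181257 to 102070083, plus strand) had 21, 11 and 11 reads in the GST lines and 0, 2 and 0 in the NOCT lines. All of its NOCT reads thus came from line 11. Scaled for library size, the pooled GST reads (43) exceeded the pooled NOCT reads (2) 23.9-fold, with an exact 95% interval of 6.23 to 204 that covers counting error only. The fitted log2 fold change, -4.35 ± 0.86 (SE), depends on the prior count at such depth. edgeR's adjusted p was 0.12 (alternatives 0.000603 to 0.476) and the exact permutation p was 0.1. GRIK2 too passed the filter only through the GST lines, so its p-values in the filtered fits are no support for a difference.

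GRIK4 (ENSG00000149403; chromosome 11, 120511700 to 120988904, plus strand) had 79, 59 and 69 reads in the GST lines and 55, 46 and 38 in the NOCT lines. The groups did not overlap, although the gap was small: the lowest GST line had 2.74 CPM and the highest NOCT line 2.16. edgeR gave GRIK4 a log2 fold change of -0.74 ± 0.25 (SE) with an adjusted p of 0.253. GRIK5, the other subunit of this kind, had 42, 29 and 31 reads in the GST lines and 40, 35 and 32 in the NOCT lines, a log2 fold change of -0.10 ± 0.28 (SE; adjusted p 0.905 in edgeR). GRIK1 was too low for the test, with 18, 10 and 10 reads in the GST lines and 0, 7 and 2 in the NOCT lines. Its pooled reads were 4.70-fold higher in GST lines (exact 95% interval 2.23 to 11.0, counting error only). With a filter of 10 counts in 3 lines GRIK1 entered the test at a log2 fold change of -2.18 and an adjusted p of 0.288 in edgeR (range over its alternatives 0.0796 to 0.591). Only the GST lines reached 10 reads, so GRIK1 entered through the group where it was high. This p is therefore no support for a difference.

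The delta receptors are related to the other glutamate receptors but bind cerebellins at synapses and do not open in response to glutamate. GRID1, a delta gene, had 268, 261 and 252 reads in the GST lines and 303, 261 and 201 in the NOCT lines. After scaling for depth every NOCT line was lower, from 10.1 to 11.9 CPM against 12.1 to 14.2, but the log2 fold change was only -0.20 ± 0.15 (SE; adjusted p 0.596 in edgeR). In the deposited TPM the groups overlapped, since NOCT lines 4 and 11 had 6.22 and 5.86 TPM while GST lines 8 and 9 had 5.95 and 5.81.

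GABBR2 (ENSG00000136928; chromosome 9, 98288082 to 98709197, minus strand) had 94, 123 and 104 reads in the GST lines and 57, 71 and 35 in the NOCT lines. The groups were well apart relative to their spread, at 5.26 ± 0.397 CPM in GST lines and 2.39 ± 0.726 CPM in NOCT lines (SD, n = 3 each). edgeR gave GABBR2 a log2 fold change of -1.13 ± 0.26 (SE) with an adjusted p of 0.162, and DESeq2 an adjusted p of 0.0118 (alternatives 0.0118 to 0.57; exact permutation p 0.1). The authors' deposited table gives GABBR2 a shrunken log2 fold change of -0.81 and an adjusted p of 0.00965. GABBR1 (ENSG00000204681; chromosome 6, 29555629 to 29633976, minus strand) had 1125, 1221 and 980 reads in the GST lines and 1026, 961 and 1005 in the NOCT lines. Its groups overlapped, since GST line 9 at 48.2 CPM was below NOCT line 12 at 50.5 CPM, and the log2 fold change was -0.30 ± 0.13 (SE; unadjusted p 0.0455, edgeR adjusted p 0.344).

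The neighbours of GABBR2 on chromosome 9 were also lower in 2 of the NOCT lines. Over the 50 nearest tested genes (25 on each side), the median deviation from the 6-line mean was 0.19, 0.22 and 0.12 on the log2 scale in GST lines 2, 8 and 9, and -0.34, 0.13 and -0.31 in NOCT lines 4, 11 and 12. In NOCT line 11 the neighbours lay within the range of the GST lines. GABBR2 was at 3.19 CPM there, against 2.24 and 1.76 CPM in NOCT lines 4 and 12 and 4.96 to 5.71 CPM in the GST lines. The part of the neighbourhood in the difference of GABBR2 was not tested. With the neighbours' level as an offset, the log2 fold change of GABBR2 was -0.81 (edgeR adjusted p 0.157; alternatives as above). The group means of such neighbourhoods differed by 0.2 or more on the log2 scale for 5 of the 22 tested members. No share over all genes stands beside this count, so it is not read as a result about the members. Among the others were GLRB on chromosome 4, and GRIN2D and GRIK5 on chromosome 19. Single lines stood apart there. The neighbours of GLRB had 0.36, -0.06 and 0.05 (GST lines) and -0.15, -0.11 and -0.10 (NOCT lines). Those of GRIN2D had -0.16, -0.11 and -0.10, then 0.36, 0.19 and -0.14. Those of GRIK5 had 0.10, -0.36 and -0.07, then 0.48, 0.36 and -0.49. The offset moved GRIN2D from 1.64 to 1.28 and GLRB from 0.17 to 0.41. The neighbours of GRIK3, GABRA5 and GABRQ stayed within 0.08 of their mean in every line, and with the offset these genes had log2 fold changes of -3.14, -2.84 and 1.68.

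Among the GABA-A genes the 2 with an unadjusted p under 0.05 lay on opposite sides. GABRA5, the alpha subunit of receptors outside synapses in the hippocampus (ENSG00000186297; chromosome 15, 26866363 to 26949207, plus strand), had 73, 12 and 52 reads in the GST lines and 3, 16 and 2 in the NOCT lines. The groups overlapped, because NOCT line 11 had more than GST line 8. GABRA5 had enough reads for the test only with the GST lines counted. Its p-values in the filtered fits are therefore no support for a difference. Means were 2.32 ± 1.66 and 0.312 ± 0.352 CPM (SD, n = 3 each), and edgeR gave GABRA5 a log2 fold change of -2.87 ± 0.86 (SE) with an adjusted p of 0.222; without NOCT line 11 the fold change was -4.33 (adjusted p 0.206). DESeq2 gave an adjusted p of 0.0256 (alternatives 0.00063 to 0.589), and GABRA5 has 0.013 in the authors' deposited table.

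GABRQ (ENSG00000268089; chromosome X, 152638183 to 152657534, plus strand) had 56, 136 and 105 reads in the GST lines and 459, 544 and 53 in the NOCT lines. NOCT lines 4 and 11, at 18 and 24.4 CPM, were above all GST lines, and NOCT line 12, at 2.66 CPM, was below them all. edgeR gave GABRQ a log2 fold change of 1.64 ± 0.67 (SE; adjusted p 0.328); without NOCT line 12 it was 2.13 with an adjusted p of 0.00694 (alternatives 0.00348 to 0.642), and without NOCT line 11 it was 1.10. GABRE, its neighbour, had 110, 854 and 481 reads in the GST lines and 844, 565 and 472 in the NOCT lines. Here the line that stood apart was GST line 2, and the log2 fold change was 0.25 ± 0.53 (SE; adjusted p 0.864 in edgeR), with the opposite sign without GST line 2.

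GABRD, a delta subunit of receptors outside synapses, had 13, 9 and 18 reads in the GST lines and 11, 7 and 13 in the NOCT lines (log2 fold change -0.51 ± 0.44, SE; adjusted p 0.638 in edgeR), and the rho gene GABRR2 had 14, 13 and 11 and then 13, 16 and 5 (log2 fold change -0.33 ± 0.43, SE; adjusted p 0.768 in edgeR). GABRG3, a gamma subunit gene next to GABRA5, had 20, 0 and 4 reads in the GST lines and 1, 1 and 0 in the NOCT lines. GST line 2 thus supplied 20 of its 26 reads, and the pooled GST to NOCT ratio was 13.3 (exact 95% interval 3.31 to 117, counting error only). GABRA2 had 0, 6 and 3 reads in the GST lines and 1, 0 and 0 in the NOCT lines. The reverse held for GABRA3, with 0, 1 and 0 in the GST lines and 6, 3 and 0 in the NOCT lines. GABRP, the pi subunit, had 1, 8 and 4 reads and then 4, 7 and 7.

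**Figure D5:**
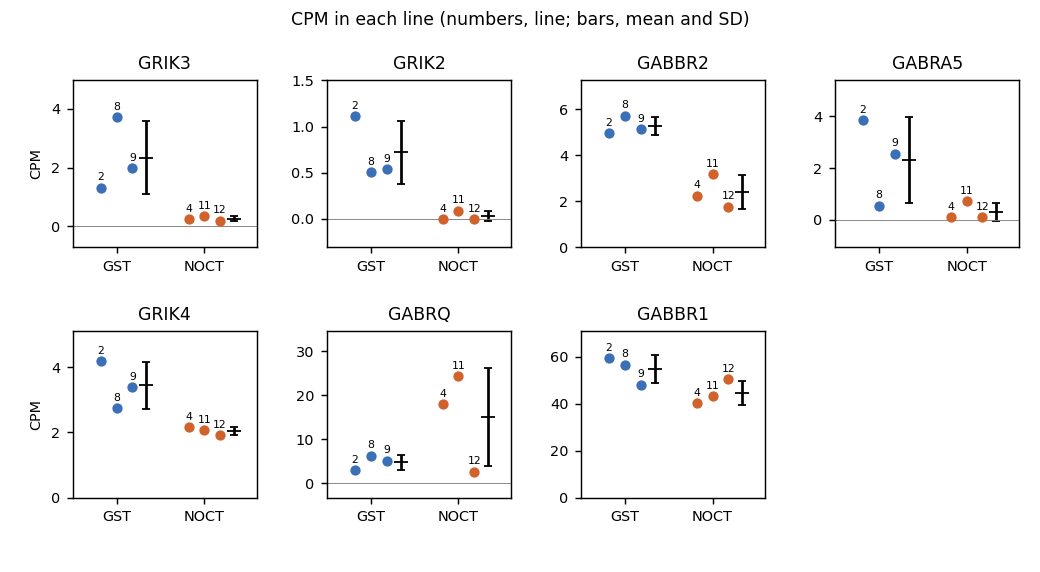
CPM of 7 of the 8 receptor genes with an unadjusted p under 0.05 in edgeR, 1 point per line (numbers name the line; blue, GST; orange, NOCT), with the mean and SD of each group to its right. The groups stand clear of each other for GRIK3, GRIK2, GABBR2 and GRIK4; they overlap for GABRA5, GABBR1 and GABRQ, and for GABRQ NOCT line 12 lies below every GST line.

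The tested NMDA genes differed 1.6-fold to 4.32-fold in CPM among the GST lines and 3.35-fold to 10.8-fold among the NOCT lines. GRIN2C had 34, 44 and 26 reads in the GST lines and 8, 12 and 50 in the NOCT lines. NOCT line 12 was thus the highest of all and the other NOCT lines the lowest, and the log2 fold change was -0.64 ± 0.68 (SE; adjusted p 0.709 in edgeR); it was -2.00 without NOCT line 12 (adjusted p 0.0324; alternatives 0.0324 to 0.956) and -0.18 without NOCT line 4. GRIN2D had 10, 4 and 6 reads in the GST lines and 55, 16 and 4 in the NOCT lines. The groups overlapped through line 12 again, and the log2 fold change of 1.64 ± 0.80 (SE; adjusted p 0.407 in edgeR) was 0.48 without NOCT line 4. GRIN2A had 12, 15 and 6 reads and then 28, 36 and 4 (0.85 ± 0.66, SE; adjusted p 0.6 in edgeR), and GRIN2B had 19, 5 and 11 and then 11, 15 and 4 (-0.41 ± 0.61, SE; adjusted p 0.798 in edgeR). GRIN3B, which encodes a glycine-binding subunit, had 3, 6 and 4 reads in the GST lines and 5, 2 and 6 in the NOCT lines.

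Of the AMPA genes, GRIA3 had 29, 25 and 17 reads in the GST lines and 23, 42 and 24 in the NOCT lines, with a log2 fold change of 0.18 ± 0.38 (SE; adjusted p 0.863 in edgeR). Its sign was the opposite without GST line 9 or NOCT line 11. GRIA4 had 7, 4 and 5 reads and then 9, 6 and 2. Among the metabotropic genes, GRM8 had 168, 163 and 129 reads in the GST lines and 219, 185 and 120 in the NOCT lines, a log2 fold change of 0.01 ± 0.21 (SE; adjusted p 0.988 in edgeR), and GRM2 had 13, 10 and 23 and then 10, 20 and 14 (-0.20 ± 0.46, SE; adjusted p 0.873 in edgeR). GRM3, which like GRM2 lowers cyclic AMP, was not tested. It had 17, 16 and 9 reads in the GST lines and 2, 3 and 4 in the NOCT lines, so the groups did not overlap, and the pooled GST reads were 5.19-fold higher (exact 95% interval 2.49 to 12.1, counting error only). Once NOCT line 12 was left out GRM3 entered the edgeR test, at a log2 fold change of -2.66 and an adjusted p of 0.045 (range over the alternatives that tested it 0.0252 to 0.444). GRM3 passed the filter in that fit only through GST lines, the group where it was high. Its p there is therefore no support for a difference. GRM4 had 7, 4 and 2 reads and then 10, 9 and 2. GLRB of the glycine class had 171, 165 and 112 reads in the GST lines and 263, 169 and 138 in the NOCT lines (0.17 ± 0.24, SE; adjusted p 0.795 in edgeR), with groups that overlapped.

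The partners of the receptors were read in 5 lists: auxiliary subunits of glutamate receptors, their scaffolds, anchoring and auxiliary proteins of GABA and glycine receptors, genes that supply the transmitters, and genes that take them up. Of their 70 genes 54 were tested and 0 were called by edgeR (background 0.0579%), while 12 (22.2%) had an unadjusted p under 0.05 (background 13.9%), 7 lower and 5 higher in the NOCT lines. Among the 8 tested of 15 auxiliary glutamate genes, the 2 with the smallest p lay on opposite sides. FRRS1L, which takes part in the assembly of AMPA receptors, had 175, 149 and 120 reads in the GST lines and 2, 12 and 15 in the NOCT lines. No NOCT line came near a GST line, and edgeR gave FRRS1L a log2 fold change of -4.04 ± 0.55 (SE) with an adjusted p of 0.0563. FRRS1L too had enough reads for the test only with the GST lines counted, so its p is no support for a difference. It lies on chromosome 9, where its neighbours had median deviations of 0.16, 0.21 and 0.13 in the GST lines and -0.33, 0.16 and -0.36 in the NOCT lines. The part of these neighbours in the difference of FRRS1L was not tested. CNIH3, a cornichon protein that escorts AMPA receptors, had 158, 163 and 132 reads in the GST lines and 353, 363 and 277 in the NOCT lines. Every NOCT line was above every GST line, at a log2 fold change of 0.98 ± 0.16 (SE, adjusted p 0.0865 in edgeR). The neighbours of CNIH3 had -0.06, -0.12 and -0.08 in the GST lines and 0.04, -0.03 and 0.25 in the NOCT lines. Their part in its difference was not tested.

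All 15 scaffold genes were tested, and 2 had an unadjusted p under 0.05 in edgeR, a share near the 13.9% of all genes tested. They were PICK1, a PDZ protein that binds AMPA subunits (0.45 ± 0.11, SE, adjusted p 0.183 in edgeR), and GRIP2, another PDZ protein of AMPA receptors (-0.98 ± 0.32, SE, adjusted p 0.245 in edgeR). The neighbours of PICK1 had median deviations of -0.24, -0.10 and -0.08 in the GST lines and 0.13, 0.09 and 0.21 in the NOCT lines. Those of GRIP2 overlapped between the groups. The part of the neighbours in these differences was not tested. Of the 14 tested genes for GABA and glycine receptor anchoring, 2 had an unadjusted p under 0.05 in edgeR, again near the 13.9% of all genes. These were NLGN2, the adhesion protein of inhibitory synapses (-0.54 ± 0.16, SE, adjusted p 0.224 in edgeR), and GABARAPL2 (0.32 ± 0.11, SE, adjusted p 0.263 in edgeR). The neighbours of GABARAPL2 had 0.12, -0.28 and -0.15 in the GST lines and 0.18, 0.15 and 0.05 in the NOCT lines. Those of NLGN2 overlapped between the groups, and the part of the neighbours was not tested here either. GPHN, the gephyrin gene, had 459 to 741 reads in a line and a log2 fold change of 0.06 ± 0.21 (SE; adjusted p 0.924 in edgeR). The supply list had 5 of its 10 tested genes at an unadjusted p under 0.05 in edgeR (13.9% of all genes tested), 3 lower and 2 higher. The smallest were GLUL, glutamine synthetase (-0.45 ± 0.14, SE; adjusted p 0.23 in edgeR), and GAD1, which makes GABA from glutamate (0.56 ± 0.20, SE; adjusted p 0.283 in edgeR). The vesicular GABA and glycine transporter SLC32A1 and the glycine transporter SLC6A5 were at 0 in all lines. Of the 7 tested uptake genes, 1 had an unadjusted p under 0.05 in edgeR, a share near the 13.9% of all genes. It was SLC1A3, a glutamate transporter of astrocytes, with lower values in the NOCT lines (-0.59 ± 0.20, SE, adjusted p 0.262 in edgeR). SLC1A2, the other main one, had 27, 30 and 28 reads in the GST lines and 120, 80 and 15 in the NOCT lines. The log2 fold change of SLC1A2 was 1.12 ± 0.56 (SE, adjusted p 0.419 in edgeR).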

How the data were processed

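RNA from 6 clonal HEK293 lines (3 per group, each labelled a biological replicate) was depleted of ribosomal RNA and sequenced strand-specifically as 50 bp reads, per the labels. The authors deposited whole-read counts per gene, TPM values, and a comparison with log2 fold changes (shrunken, by its name), p-values, a mean signal and a Wald score per gene. The submitters' processing notes name cutadapt 1.8.1, Trimmomatic 0.33, STAR 2.5.2b, HTSeq 0.6.1p1, DESeq2 1.16.1 and GRCh38; the annotation release is not given in the sources used here. The deposited TPM hold the counts with 1 length per gene: the count to TPM ratio between lines was the same, within rounding, for all 21419 genes compared. The signal and score columns that the authors deposited were not used.

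Rows naming no gene held 42.9% to 47.1% of the reads and stayed out of library sizes, as did spike-ins and constructs. The main test was edgeR 4.0.16 (R 4.3.3): filterByExpr, TMM, quasi-likelihood test, Benjamini-Hochberg over 17261 genes, with standard errors derived from the F statistic. CPM are scaled by TMM. The biological coefficient of variation was 19.7%. The exact two-sided permutation test used log2(CPM + 0.5). Alternatives were DESeq2 1.42.0, limma 3.58.1 (voom, and log2 of TPM + 0.1 or + 1), other scalings and filters, a neighbour offset and leaving out each line. Coordinates come from GENCODE 29 (GRCh38), promoters from RefSeq (GRCh38.p14). The tested receptor genes are named except 2, full statistics going to those with an unadjusted p under 0.05 and the highest of each class; of each partner list the 2 with the smallest p are named, and GPHN, SYT1, the printed promoters and the reads given for members under 10 reads were chosen after their values were seen. The members and lists were chosen with earlier results of these data known. Results for 5 members and 1 lineage marker are not reported here, although counts over all members include them.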

Additional observations from a re-analysis of the deposited data

How the results depend on the processing

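The count of genes called by edgeR, 10, was 508 with DESeq2, 16 with limma voom, 39 with the neighbour offset, 888 with no filter, 22 with spike-in totals, and 0 to 970 when a line was left out (0 without GST line 9, 970 without NOCT line 12). Receptor genes called, 0, became 3 with DESeq2, 7 with no filter and 0 to 5 when a line was left out. Those with an unadjusted p under 0.05, 8, became 5 with limma on log2(TPM + 0.1) (14% of all genes), 13 of 46 tested with no filter (10.7% of all genes) and 4 to 13 when a line was left out (13.2% of all genes without GST line 2, 23.2% without NOCT line 12). Detected genes, 46, became 26 where 10 reads in a line were required, and 44 to 46 without a line. The cause of these shifts was not tested. Of the single log2 fold changes, 16 values had the opposite sign. Over the fits that left out a line, the values ran from -0.16 to 0.41 for GRIA3 (below 0 without GST line 9 or NOCT line 11), -0.21 to 0.88 for GABRE (below 0 without GST line 2), -0.85 to 0.19 for GRIN2B and -0.25 to 0.14 for GRIK5 (above 0 without GST line 2), -0.032 to 0.33 for GLRB (below 0 without GST line 9 or NOCT line 4), -0.49 to 0.20 for GRM2 (above 0 without GST line 9 or NOCT line 4) and -0.10 to 0.15 for GRM8 (below 0 without GST line 8 or 9 or NOCT line 4 or 11). GRIK5 was also 0.016 on log2(TPM + 0.1), 0.0038 on log2(TPM + 1) and 0.048 with spike-in totals. Another 13 passed the threshold and 294 kept sign and side. On log2(TPM + 1) low genes have smaller fold changes by construction, GRIK3 -0.59 and GRIK2 -0.32. DESeq2 gave no adjusted p for GABRD, GABRR2, GRIN2A, GRIN2B, GRIN2D, GRIK2 and GRM2. No paired analysis was possible because the groups share no replicate number. Depth limits the genes with few reads: 14 receptor genes had 1 to 9 reads and 6 had 0.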
